A study of Mus musculus with 32 samples.

Results

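Endoderm transcription factor genes were followed through 8 groups of mouse embryonic stem cells (ESCs) with or without β-catenin, at day 0 and after 4 days of differentiation. The 9 genes were taken by name, out of 31053 genes in the deposited count tables: Gata4, Gata6, Sox17, Sox7, Foxa1, Foxa2, Foxa3, Hnf4a and Hhex. Gata4, Gata6, Sox17, Sox7 and Foxa2 belong to the published endoderm marker set that the study used, and Foxa1, Foxa3, Hnf4a and Hhex lie outside it, so the first 5 serve as the reference against which the other 4 are read. The set also holds Cxcr4, a chemokine receptor gene, which is not a member.

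All libraries came from 1 line, C1, a mouse ESC line that lacks endogenous β-catenin. It carries rtTA and a TRE3G promoter that drives a destabilised, mCherry-tagged β-catenin with the S33Y change: doxycycline (dox) starts its transcription and trimethoprim (TMP) keeps the protein from being degraded. At day 0, C1 had TMP alone, whereas C1M and C1H had dox and TMP for 48 hours and were sorted as the middle and the high mCherry fraction. At day 4, after withdrawal of the pluripotency medium into NDiff227, C1T had TMP alone, C1MV and C1HV came from the C1M and C1H fractions and received neither drug, and C1MDT and C1HDT came from the same fractions and kept both. Each group had 4 libraries, which the labels call biological replicates of this line, so p-values measure the spread between cultures of 1 line. Exposure to dox and the sort on mCherry came with the induction and cannot be told apart from β-catenin itself, and C1T kept TMP while C1MV and C1HV did not.

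GATA4 and GATA6 are zinc finger factors, SOX17 and SOX7 belong to the SOXF group, and FOXA1, FOXA2 and FOXA3 are forkhead factors that can bind closed chromatin. In the mouse embryo GATA6, GATA4, SOX17 and SOX7 act in primitive endoderm and its extraembryonic derivatives, while FOXA2 and SOX17 also mark definitive endoderm. HNF4A is a nuclear receptor of visceral endoderm and liver, FOXA3 acts mainly later in gut and liver, and HHEX is a homeobox factor of anterior visceral endoderm, foregut and liver, which some ESCs also express.

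Reads were taken from 3′ ends of mRNA (QuantSeq), so 1 count stands for 1 read and each level is given in CPM, a gene's reads relative to the library's total after TMM scaling. The 32 libraries held 1366951 to 3648787 reads on genes, so 3 counts, the floor used here for low values, were worth 0.822 to 2.19 CPM. Ctnnb1, the β-catenin gene and the check of the transgene, had a mean of 7.81 CPM in C1 and 41.1 CPM in C1H, a log2 fold change of 2.37 (FDR 6.33e-20 in edgeR's quasi-likelihood test). In C1M the mean was 12.2 CPM, a log2 fold change of 0.61 that was not called (FDR 0.0551), and its libraries overlapped those of C1. At day 4 its mean was 9.74 CPM in C1T, 9.16 CPM in C1MV and 6.21 CPM in C1HV, against 29.2 CPM in C1MDT and 30.8 CPM in C1HDT. Of the 15280 genes tested, all 9 members passed the filter of 1 CPM in 4 libraries, which Sox7 and Foxa1 met through some groups only. In bulk samples, fewer cells of a type and less RNA per cell cannot be told apart, which holds for every level below.

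The promoters of 3 members are shown because they hold a match to a motif of the pathway or of the factors themselves. RefSeq sequences (build GRCm38.p6, the assembly of mm10) were found for 5 members, with 8 promoters in all, each printed with the 250 bases before its start base and the 30 that begin there. The 3 motifs were searched on both strands of the table's full windows of 300 bases: CTTTGAT for TCF/LEF, the partners of β-catenin on DNA, TGTTTAC for forkhead factors, and AGATAA for GATA factors. They occur in 3.73%, 3.65% and 11.2% of the 32851 promoters in that table, and no match overlaps another in the sequences shown. Capitals mark each match as it reads on the gene's strand. Gata4, Gata6, Sox17 and Sox7 are named only.

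The Foxa2 promoter at chr2:148045435-148045714, minus strand, has a TCF/LEF match 14 bases after its start base on the opposite strand and a GATA match 183 bases before it. The Foxa1 promoter at chr12:57546082-57546361, minus strand, has a forkhead match 141 bases before its start on the opposite strand. The Hnf4a promoter at chr2:163506607-163506886, plus strand, has a GATA match 52 bases before its start.
Foxa2 promoter: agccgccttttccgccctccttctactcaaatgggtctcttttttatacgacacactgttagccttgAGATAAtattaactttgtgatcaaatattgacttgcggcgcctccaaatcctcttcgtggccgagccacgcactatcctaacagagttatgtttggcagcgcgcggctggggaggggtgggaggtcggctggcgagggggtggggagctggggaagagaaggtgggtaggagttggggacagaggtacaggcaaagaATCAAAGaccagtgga
Foxa1 promoter: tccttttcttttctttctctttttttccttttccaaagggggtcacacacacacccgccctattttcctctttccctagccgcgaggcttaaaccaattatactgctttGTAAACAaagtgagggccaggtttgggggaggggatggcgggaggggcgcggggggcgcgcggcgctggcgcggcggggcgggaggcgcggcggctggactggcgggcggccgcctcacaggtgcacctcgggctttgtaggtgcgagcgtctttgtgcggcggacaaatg
Hnf4a promoter: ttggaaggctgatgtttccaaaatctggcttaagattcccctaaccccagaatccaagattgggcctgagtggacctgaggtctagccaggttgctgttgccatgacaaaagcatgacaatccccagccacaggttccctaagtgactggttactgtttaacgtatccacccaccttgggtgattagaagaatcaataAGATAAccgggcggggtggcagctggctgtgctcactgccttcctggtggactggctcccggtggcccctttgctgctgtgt
The other 5 promoters, which include further promoters of Foxa2 and Hnf4a, hold none of the 3 motifs. A match is a description of these letters, and counts from 3′ ends do not show which start was used.

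Gata4 (chr14:63198922-63271692, minus strand) was low in undifferentiated and in knockout cells and high in every induced group at day 4. Replicates 1 to 4 of C1T had 0.959, 4.58, 3.34 and 0 CPM. C1MV had 15.3, 19.1, 22.2 and 28.5 CPM, C1MDT had 25.4, 26.9, 24.0 and 21.7 CPM. C1HV had 27.4, 15.9, 18.1 and 16.3 CPM, and C1HDT had 29.6, 29.1, 26 and 31 CPM. The lowest of the 16 induced libraries therefore stood above the highest library of C1T. Against C1T, the log2 fold changes were 3.05 (SE 0.32) in C1MV, 3.29 (SE 0.30) in C1MDT, 2.97 (SE 0.33) in C1HV and 3.54 (SE 0.30) in C1HDT, with the largest edgeR FDR at 3.84e-14. At day 0 the levels in C1 (2.52, 7.36, 3.63 and 1.91 CPM) overlapped those in C1M (2.97, 6.74, 5.54 and 6.60 CPM) and C1H (6.81, 5.23, 7.33 and 7.56 CPM).

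Gata6, which acts at the top of the primitive endoderm programme, was likewise high in every induced group at day 4. C1T had 2.88, 4.58, 2.38 and 1.96 CPM. C1MV had 26.6, 37.9, 30.5 and 33.5 CPM, and C1MDT had 38, 44.2, 49.1 and 47.1 CPM. C1HV had 26.9, 37, 31.8 and 33.2 CPM, and C1HDT had 37.7, 42.0, 43.5 and 34 CPM. The 16 induced libraries again lay above all 4 of C1T, and the libraries of C1MDT lay above those of C1MV, although its lowest exceeded their highest by a narrow margin. The log2 fold changes against C1T were 3.36 (SE 0.26), 3.85 (SE 0.24), 3.36 (SE 0.26) and 3.65 (SE 0.25) for C1MV, C1MDT, C1HV and C1HDT, with the largest edgeR FDR at 1.12e-23. In C1, Gata6 rested on 11 reads in all, at 2.94, 0.566, 1.04 and 0.479 CPM, and replicate 1 held most of them. A noncoding transcript on the opposite strand, 1010001N08Rik, overlaps 504 bases of Gata6 and had 62 reads over all libraries, and the strand used in counting is not given in the sources used here.

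Sox17 (chr1:4490931-4497354, minus strand) was close to absent from differentiated knockout cells. C1T had 0.959, 0, 0 and 0 CPM, which is 2 reads in replicate 1 and none in the others. C1MV had 11.7, 21.7, 15.3 and 19.3 CPM, and C1MDT had 20.2, 17.3, 23.4 and 20.6 CPM. C1HV had 12.4, 10.8, 12.0 and 15.0 CPM, and C1HDT had 17.7, 21.5, 23.0 and 27.2 CPM. Every induced library at day 4 was above every knockout library of that day. With 2 reads in C1T, the ratios to it carry wide exact Poisson intervals that cover counting error only: 68.1 (18.5 to 567) in C1MV, 83.9 (23.0 to 697) in C1MDT, 50.5 (13.6 to 423) in C1HV and 90.9 (24.9 to 755) in C1HDT, and the largest edgeR FDR was 5.98e-16.

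Sox17 fell over the 4 days in knockout cells. C1 had 3.36, 1.13, 2.08 and 2.87 CPM, 20 reads in all, which lay above all libraries of C1T. The ratio of C1T to C1 was 0.101 (0.0114 to 0.414), called lower at an FDR of 5.23e-04 in edgeR's test. An antisense transcript, Gm37587, overlaps 804 bases of Sox17.

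Sox7 (chr14:63943673-63950732, plus strand), which lies 671980 bases from Gata4, had no reads in C1 and 1 read in C1T. C1MV had 4.84, 2.62, 6.54 and 2.85 CPM, and C1MDT had 3.46, 2.58, 1.95 and 4.47 CPM. C1HV had 6.71, 3.98, 3.87 and 5.85 CPM, and C1HDT had 3.40, 4.77, 2.93 and 4.42 CPM. All induced day 4 libraries held Sox7 reads, whereas the 16 libraries of the other groups were at 0.652 CPM or below. The ratios to C1T were 35.8 (6.07 to 1447), 24.5 (4.10 to 996), 40.8 (6.90 to 1654) and 31.3 (5.31 to 1268) for C1MV, C1MDT, C1HV and C1HDT, with the largest edgeR FDR at 4.76e-05. Sox7 passed the filter through the induced groups alone, so the filter itself required a difference.

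Foxa2 (chr2:148042877-148046969, minus strand) was the FOXA gene of the marker set and the 1 FOXA gene called higher in the induced groups of day 4 against C1T. C1T had 2.88, 2.08, 2.38 and 0.652 CPM. C1MV had 18.9, 24.0, 18.9 and 22.8 CPM, and C1MDT had 30.6, 36.1, 31.5 and 33.7 CPM. C1HV had 22.7, 23.3, 21.9 and 29.9 CPM, and C1HDT had 29.6, 35.8, 27.6 and 40.8 CPM. The groups that kept dox and TMP sat higher than their withdrawn counterparts, without overlap in the middle fraction and with overlap in the high one. Against C1T the log2 fold changes were 3.3 (SE 0.31), 3.95 (SE 0.29), 3.5 (SE 0.31) and 3.97 (SE 0.29) for C1MV, C1MDT, C1HV and C1HDT, with the largest edgeR FDR at 4.80e-18.

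**Figure D1:**
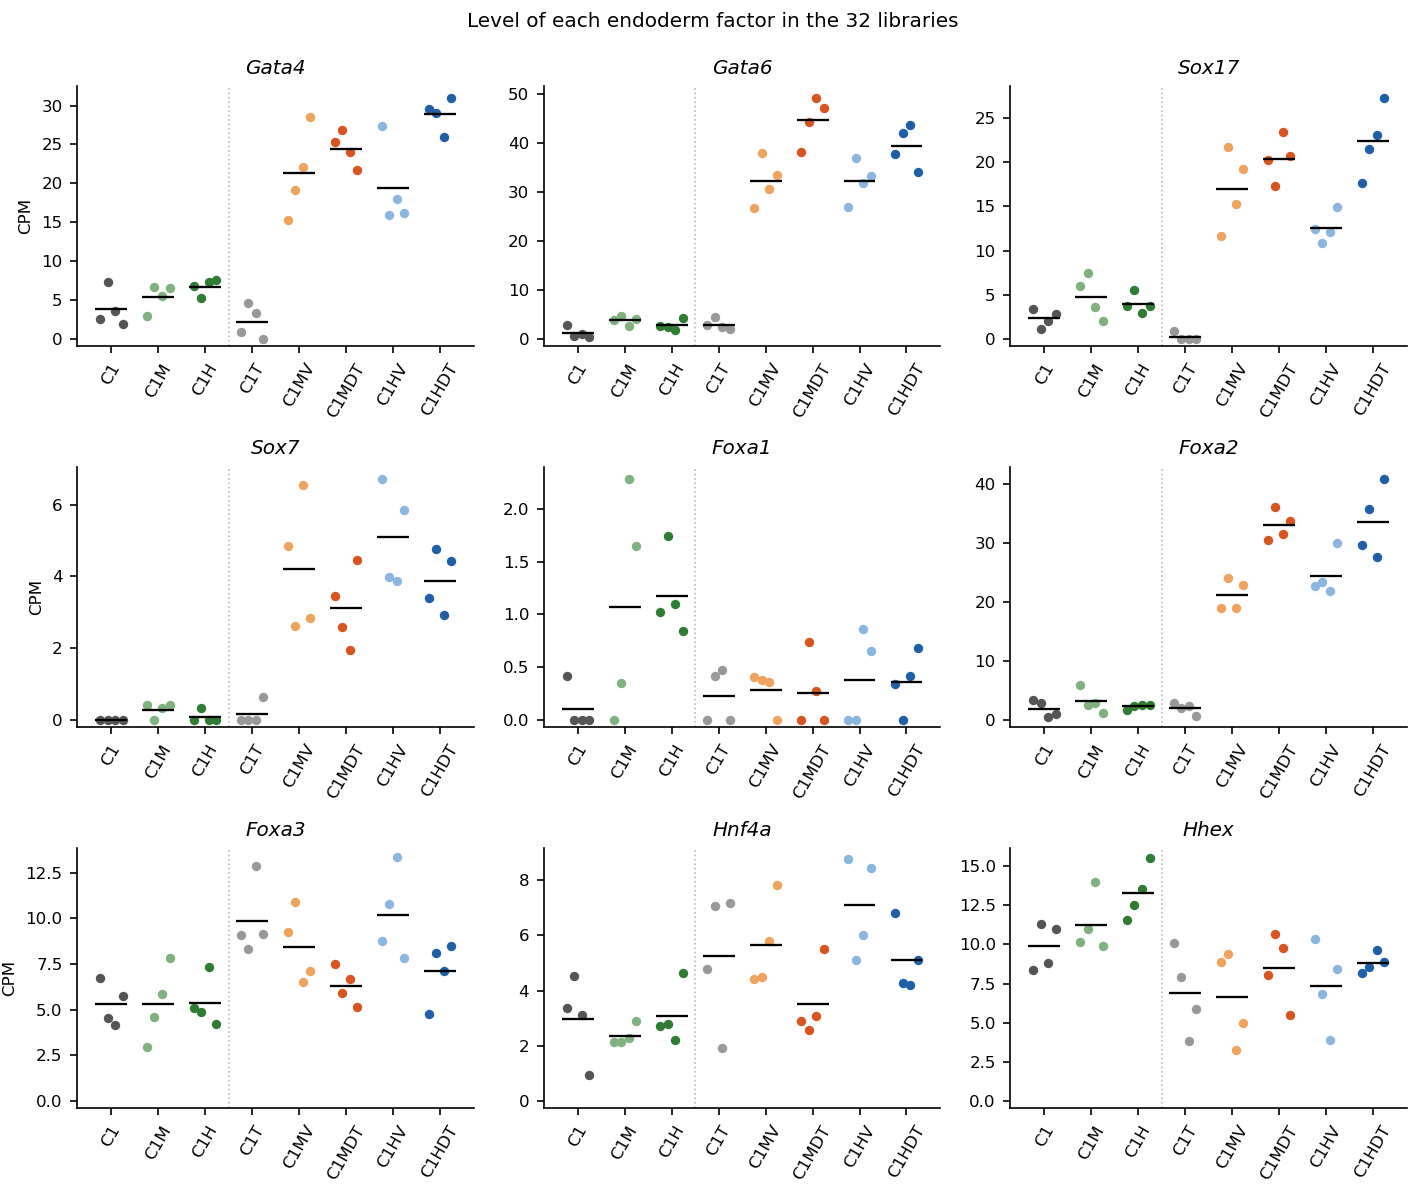
Level of each of the 9 genes in CPM (vertical axis, linear, its own scale in each panel) in the 8 groups; each point is 1 library, the black lines are group means, and the dotted line parts day 0 from day 4. Gata4, Gata6, Sox17, Sox7 and Foxa2 stand higher in the 4 induced groups of day 4 than in C1T, whereas the points of Foxa1, Hnf4a and Hhex overlap C1T in each of them.

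The comparison at day 4 asks which genes differ between cells that had been induced, before differentiation alone or also during it, and the knockout. Ctnnb1 itself was called higher against C1T in C1MDT and C1HDT but not in C1MV and C1HV. Against C1T, 4 of the 9 members, Gata4, Gata6, Sox17 and Foxa2, rose in each of the 4 induced groups and none fell. Sox7, the other member in the marker set, was called as well, which brings the count to 5, but the filter required its difference. Cxcr4, which belongs to the set and is no member, had a mean of 0.283 CPM in C1T and 0.237 to 0.680 CPM in the induced groups and was not called. By the same rule (edgeR, FDR under 0.05), 30.2%, 33.4%, 28% and 33.5% of all tested genes were called in these groups in the order just used for Foxa2, and 15.4%, 16.9%, 13.7% and 17.4% were called higher. As a description, which includes Sox7 and Foxa1, the median log2 fold change over the 9 members was 3.05, 3.29, 2.97 and 3.54, against 0.01, -0.01, 0.01 and 0.00 over all genes. For those 4 genes, the 16 induced libraries all stood above the 4 of C1T, which was so for 6.02% of the genes tested. The 4 comparisons share the C1T libraries.

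Ordered by mean level over the 8 groups, Gata4, Gata6, Sox17 and Foxa2 each had the 4 induced groups of day 4 on top and a gap without overlap under them. So did Sox7, but it met the filter through those groups alone. That gap parted C1HV (19.4 CPM) from C1H (6.73 CPM) for Gata4, C1MV (32.1 CPM) from C1M (3.79 CPM) for Gata6, C1HV (12.5 CPM) from C1M (4.76 CPM) for Sox17, C1MDT (3.12 CPM) from C1M (0.291 CPM) for Sox7 and C1MV (21.2 CPM) from C1M (3.15 CPM) for Foxa2. Among neighbours elsewhere in the order, only C1MDT and C1HV for Foxa2 and C1 and C1T for Sox17 did not overlap. The share of all tested genes with such an order and gap was not counted.

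None of the 4 genes outside the marker set was called in any of these comparisons in edgeR's test. DESeq2 called none of those to which it gave an adjusted p, which Foxa1 lacked in C1MV, C1HV and C1HDT. At an unadjusted p under 0.05 there was 1 in C1MDT vs C1T, Foxa3, and 0 in the other 3. Foxa3 was lower there, at a log2 fold change of -0.66 (95% interval -1.23 to -0.09, FDR 0.0682 in edgeR's test), and its libraries did not overlap. For Hnf4a the 95% intervals of the log2 fold change ran from -0.66 to 0.80 in C1MV, from -1.29 to 0.22 in C1MDT, from -0.28 to 1.16 in C1HV and from -0.76 to 0.75 in C1HDT. For Hhex they ran from -0.67 to 0.56, from -0.28 to 0.86, from -0.59 to 0.67 and from -0.25 to 0.90. All of these upper bounds lie under the estimates for Gata4, Gata6 and Foxa2, but the intervals leave room for smaller changes in either direction.

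**Figure D2:**
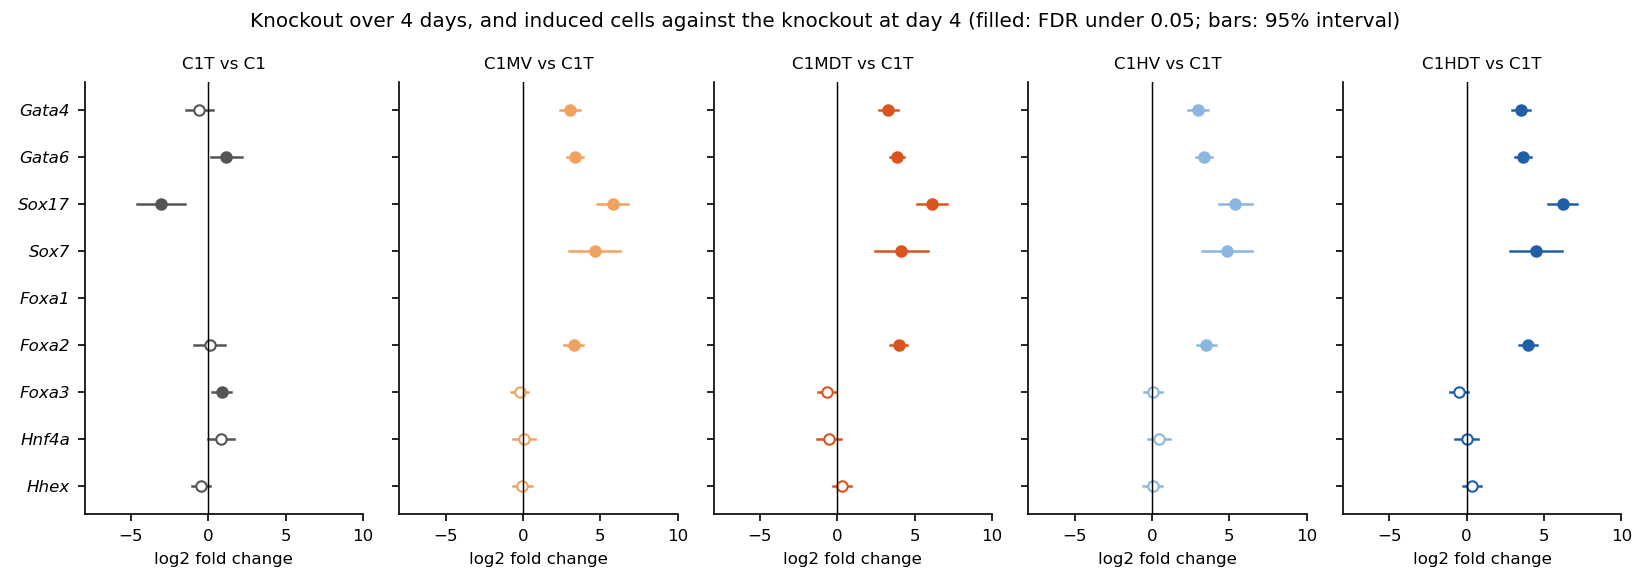
Log2 fold change (horizontal axis) of each gene in C1T vs C1 and in C1MV, C1MDT, C1HV and C1HDT vs C1T, with bars for the 95% interval and filled points for an edgeR FDR under 0.05. Against C1T the 5 members in the marker set lie at 2.97 or above, Foxa3, Hnf4a and Hhex lie between -0.66 and 0.44, and the positions of Sox17 and Sox7 rest on 2 and 1 reads in C1T. No point is drawn where both groups held 4 reads or fewer, which leaves out Foxa1 throughout and Sox7 in C1T vs C1.

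The change over 4 days was then compared between induced and knockout cells, as the day 4 versus day 0 change of each induced arm minus that of C1T versus C1. Gata4, Gata6, Sox17 and Foxa2 rose from C1M to C1MV and C1MDT and from C1H to C1HV and C1HDT. Sox7 was called too, but the filter, which it met through the induced groups of day 4 alone, required that. Gata4 rose by log2 fold changes of 1.90, 2.13, 1.54 and 2.10 in C1MV, C1MDT, C1HV and C1HDT, Gata6 by 3.08, 3.57, 3.52 and 3.80, Sox17 by 1.81, 2.09, 1.62 and 2.46, and Foxa2 by 2.74, 3.39, 3.37 and 3.84. Sox7 had ratios of 15.7 (5.00 to 79.1), 10.7 (3.37 to 54.7), 54.9 (9.27 to 2224) and 42.1 (7.14 to 1705). In C1T against C1, Foxa2 had a log2 fold change of 0.09 (95% interval -0.92 to 1.11) and Gata4 of -0.58 (-1.47 to 0.31). Of the 9 members, Sox7 counted in the first 4 comparisons, 7 were called in C1MV vs C1M, where 45.8% of all tested genes were, 5 in C1MDT vs C1M (52.4%), 8 in C1HV vs C1H (47%) and 6 in C1HDT vs C1H (55.7%), and 3 in C1T vs C1 (49.2%).

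The difference between the arms itself was called for Gata4, Gata6, Sox17 and Foxa2 in all 4 induced arms, 16 of 16 tests, in edgeR. The shares of all tested genes called in these 4 tests were 22.5%, 24.4%, 21.9% and 25.2%, and 11%, 11.8%, 10.7% and 12.6% were called higher. For Foxa2 the extra log2 change over that of the knockout was 2.65 (FDR 4.17e-04) in C1MV, 3.3 (FDR 8.94e-06) in C1MDT, 3.28 (FDR 1.81e-05) in C1HV and 3.75 (FDR 7.46e-07) in C1HDT. For Gata6 it was 1.91 (FDR 0.0187), 2.41 (FDR 0.00242), 2.36 (FDR 0.00397) and 2.64 (FDR 9.64e-04), and these 4 calls rested on C1 replicate 1, without which they were 1.04 (FDR 0.475), 1.54 (FDR 0.252), 1.49 (FDR 0.289) and 1.77 (FDR 0.182). For Sox7, with no reads in C1, edgeR called 0 of 4 with standard errors of 3.72 or more, while DESeq2 called the difference in C1HV alone (adjusted p 0.0487), and no value is read from either. The difference was called in none of these tests for Foxa1, Foxa3, Hnf4a and Hhex by edgeR, nor by DESeq2 for Foxa3, Hnf4a and Hhex (it gave Foxa1 no adjusted p), and 0 had an unadjusted p under 0.05.

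Among the genes outside the marker set, Foxa1 (chr12:57540628-57546916, minus strand) was near the floor throughout, and it had more reads in induced cells at day 0 than anywhere else. C1 had 0.419, 0, 0 and 0 CPM, C1M had 0, 0.355, 2.28 and 1.65 CPM, and C1H had 1.02, 1.74, 1.1 and 0.840 CPM. At day 4 no library of any group exceeded 0.860 CPM, and a group held 2 to 4 reads in all. The libraries of C1H stood above those of C1 with 13 reads against 1, a ratio of 9.73 (1.46 to 413) and an edgeR FDR of 0.0529, and C1M had 12 reads, a ratio of 9.19 (1.36 to 393) and an FDR of 0.0655. Neither passed the threshold, and no fold is given between the day 4 groups, which were at or near the floor. Foxa1 passed the filter through 2 libraries of C1M and 3 of C1H alone, so the filter itself favoured a difference at day 0.

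Foxa3 (chr7:19013284-19023538, minus strand) rose over the 4 days in knockout cells and in the withdrawn high fraction. C1 had 6.71, 4.53, 4.15 and 5.74 CPM and C1T had 9.11, 8.32, 12.9 and 9.13 CPM, so the libraries did not overlap. C1H had 5.11, 4.88, 7.33 and 4.20 CPM and C1HV had 8.78, 10.8, 13.3 and 7.80 CPM, also without overlap. The log2 fold change was 0.87 (SE 0.31, FDR 0.0142) in C1T vs C1 and 0.93 (SE 0.30, FDR 0.00560) in C1HV vs C1H in edgeR's test, and without C1T replicate 3 the first was 0.72 (FDR 0.0747). From C1M to C1MV it was 0.68 (FDR 0.0523), not called, although it was in 4 of 8 fits that left out a library and in 1 of 7 other settings. The groups that kept dox and TMP had lower means, 6.31 CPM in C1MDT and 7.12 CPM in C1HDT, and there the changes from day 0 were 0.22 (95% interval -0.38 to 0.83) and 0.39 (-0.21 to 0.98).

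Hnf4a (chr2:163506808-163572910, plus strand) rose from day 0 in the groups from which dox and TMP had been withdrawn. C1M had 2.12, 2.13, 2.28 and 2.89 CPM and C1MV had 4.43, 4.5, 5.81 and 7.84 CPM. C1H had 2.72, 2.79, 2.20 and 4.62 CPM and C1HV had 8.78, 5.12, 6.02 and 8.45 CPM. In neither fraction did the libraries overlap. The log2 fold changes were 1.19 (SE 0.40, FDR 0.00987) and 1.2 (SE 0.38, FDR 0.00534) in edgeR's test, on totals of 25 to 53 reads a group. With dox and TMP kept on, C1MDT had 2.88, 2.58, 3.07 and 5.50 CPM and C1HDT had 6.80, 4.29, 4.19 and 5.10 CPM, with log2 fold changes of 0.59 (95% interval -0.24 to 1.42) and 0.76 (0.01 to 1.5, FDR 0.0774) from day 0, of which the second was called without C1H replicate 4 (1.00, FDR 0.0351). The direct contrasts of kept against withdrawn were not called, at -0.60 (95% interval -1.34 to 0.13) in the middle and -0.44 (-1.13 to 0.25) in the high fraction. C1 had 3.36, 4.53, 3.11 and 0.957 CPM and C1T had 4.80, 7.07, 1.91 and 7.18 CPM, which overlapped, and the log2 fold change of 0.80 was not called (FDR 0.104), although it was without C1T replicate 3 (FDR 0.0269). Its mean in C1T, 5.24 CPM, stood between those of the induced groups of day 4, and neighbouring groups in its order, from C1HV at 7.09 CPM to C1M at 2.35 CPM, all overlapped, as they did for Foxa3 and Hhex. An antisense transcript, Hnf4aos, overlaps 34913 bases of Hnf4a and had 29 reads in all libraries.

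Hepatic transcripts rose in the comparisons in which Hnf4a rose, and fell in others in which Hnf4a was not called. A list of 17 liver genes known as targets of FOXA factors and HNF4A had 16 members in the tables and 15 tested. Of those 15, 10 rose and 0 fell in C1MV vs C1M (median log2 fold change 0.70) and in C1HV vs C1H (0.57), where 45.8% and 47% of all tested genes were called, whereas 0 rose and 1 fell in C1MDT vs C1M (0.14, with 52.4% of all genes called) and 1 rose and 1 fell in C1HDT vs C1H (0.21, with 55.7%). Against C1T, 12 of 15 fell in C1MDT (median -0.69) and 9 in C1HDT (-0.57), where 33.4% and 33.5% of all genes were called, and 0 were called in C1MV and C1HV (30.2% and 28%). At day 0, 7 fell in C1M and 8 in C1H against C1, where 26.3% and 25.9% of all tested genes were called. In C1MDT vs C1T and C1HDT vs C1T, Hnf4a had log2 fold changes of -0.54 (95% interval -1.29 to 0.22) and -0.002 (-0.76 to 0.75). In C1M vs C1 and C1H vs C1 it had -0.32 (-1.24 to 0.59) and 0.04 (-0.83 to 0.91). None was called in edgeR's test (FDR 0.301 or above). The intervals leave room for a fall of the size of the list's median in each comparison. The summed level of the list was 2353 to 2983 CPM in C1, 1545 to 1921 CPM in C1M, 1318 to 2066 CPM in C1H, 2239 to 4127 CPM in C1T, 2287 to 2787 CPM in C1MV, 1456 to 2059 CPM in C1MDT, 1989 to 2766 CPM in C1HV and 1684 to 2299 CPM in C1HDT.

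Alb, the serum albumin gene, took 25.8% to 32.3% of that sum in every library and Apoa1, an apolipoprotein gene, 21.7% to 26.8%, whereas Afp, the fetal counterpart of albumin and a defining marker of visceral endoderm and fetal liver, was at 1.14 CPM or below. Apoc1, another apolipoprotein gene, varied more, from 6.55% to 16.5%. Over the 32 libraries, which differ in depth and fall into the 8 groups, the correlation of the summed list with Hnf4a was 0.435 and with Foxa3 0.374, in the 20 day 4 libraries it was 0.446 and 0.371, and in the 12 day 0 libraries it was 0.117 and 0.033. With Hhex and Foxa1 it was -0.492 and -0.395 over the 32. The members in the marker set had negative values in the day 4 libraries, at -0.618 for Foxa2, -0.625 for Gata4, -0.551 for Gata6, -0.555 for Sox17 and -0.239 for Sox7. The part of these transcripts in the change of Hnf4a was not tested.

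**Figure D3:**
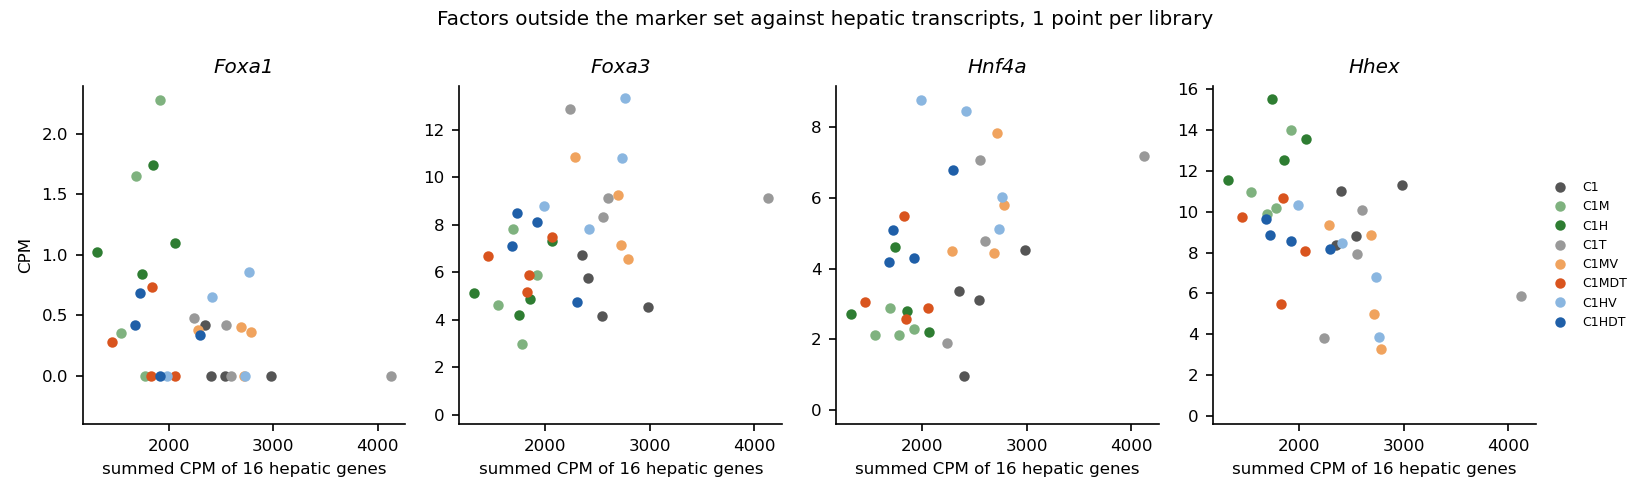
Level of Foxa1, Foxa3, Hnf4a and Hhex in CPM (vertical axis) against the summed CPM of the 16 liver genes (horizontal axis), 1 point for each of the 32 libraries, coloured by group. Most points of C1M, C1H, C1MDT and C1HDT lie to the left, and 1 library of C1T stands apart at 4127 CPM.

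Hhex (chr19:37434810-37440731, plus strand) ran the other way and was highest before differentiation. C1 had 8.39, 11.3, 8.82 and 11.0 CPM, C1M had 10.2, 11.0, 14.0 and 9.90 CPM, and C1H had 11.6, 12.5, 13.6 and 15.5 CPM. At day 4, C1T had 10.1, 7.91, 3.81 and 5.87 CPM, C1MV had 8.87, 9.37, 3.27 and 4.99 CPM, C1MDT had 8.07, 10.7, 9.77 and 5.50 CPM, C1HV had 10.3, 6.82, 3.87 and 8.45 CPM, and C1HDT had 8.16, 8.59, 9.63 and 8.85 CPM. The withdrawn and the knockout groups spread most between libraries. Hhex fell by 0.75 on the log2 scale in C1MV vs C1M (FDR 0.0175), by 0.87 in C1HV vs C1H (FDR 0.00526) and by 0.59 in C1HDT vs C1H (FDR 0.0356) in edgeR's test, without overlap between libraries. In C1MDT vs C1M the log2 fold change was -0.41 (95% interval -0.91 to 0.09, FDR 0.173), not called, and the libraries overlapped. The first call was lost without C1M replicate 3, C1MV replicate 3 or C1MV replicate 4, and the second without C1HV replicate 3 (FDR 0.0888). The call in C1HDT vs C1H was lost without C1H replicate 2, 3 or 4 or C1HDT replicate 1, 2 or 4 (FDR up to 0.106) and had an adjusted p of 0.0547 in DESeq2. In C1T vs C1 the log2 fold change was -0.49 (95% interval -1.07 to 0.10, FDR 0.171).

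The comparison of C1MDT with C1MV and of C1HDT with C1HV asks whether continued β-catenin expression differs from expression before differentiation alone. Of the 9 members, 2 rose in C1MDT vs C1MV, where 12.6% of all tested genes were called and 6.64% were called higher, and 2 rose in C1HDT vs C1HV (15.9% and 9.06%). In the middle fraction these were Foxa2, at a log2 fold change of 0.65 (SE 0.18, FDR 0.00616), and Gata6, at 0.49 (SE 0.15, FDR 0.0185), in edgeR's test. In the high fraction they were Sox17, at 0.84 (SE 0.23, FDR 0.00407), and Gata4, at 0.57 (SE 0.20, FDR 0.0386). The call for Gata6 was lost without C1MV replicate 1, C1MV replicate 3 or C1MDT replicate 3, and that for Gata4 without C1HV replicate 2, 3 or 4 or C1HDT replicate 1, 2 or 4, in DESeq2 (adjusted p 0.0750), and in edgeR with RLE scaling (FDR 0.0513) or library size only (FDR 0.0655). Foxa2 had 0.47 in the high fraction (FDR 0.0644). The term for a difference between fractions was called for 0 members in edgeR, with 0 at an unadjusted p under 0.05, and DESeq2 gave it no adjusted p.

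**Figure D4:**
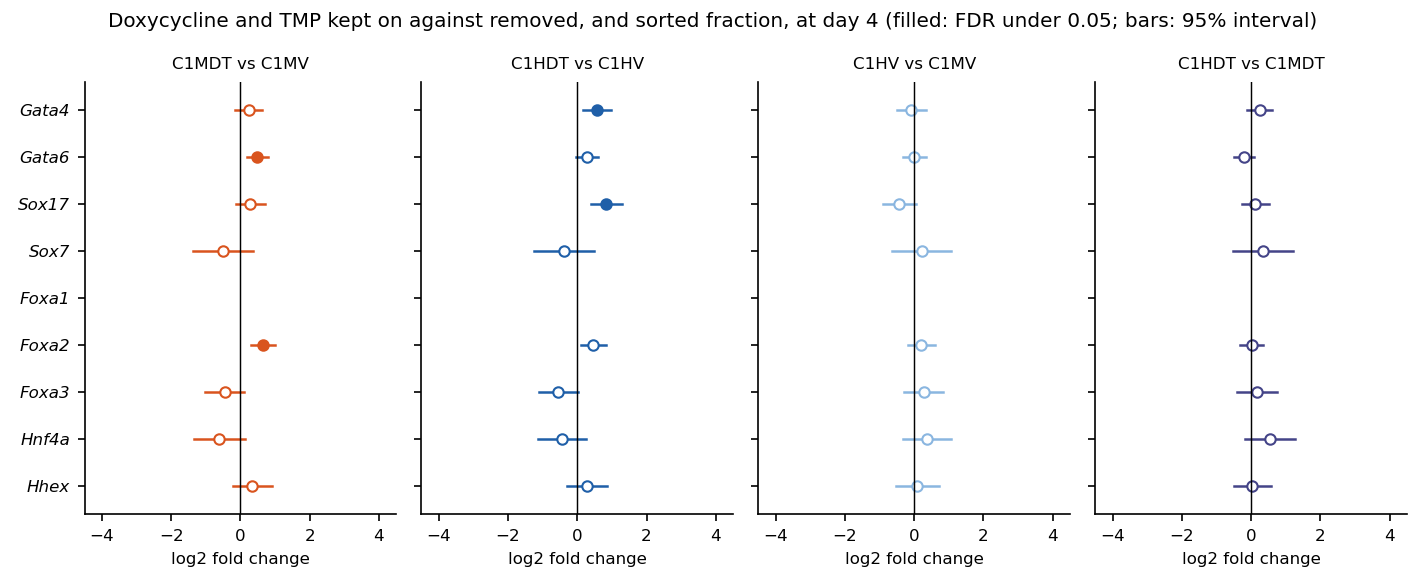
Log2 fold change (horizontal axis) of each gene between dox and TMP kept on and withdrawn (C1MDT vs C1MV, C1HDT vs C1HV) and between the fractions (C1HV vs C1MV, C1HDT vs C1MDT), with bars for the 95% interval and filled points for an edgeR FDR under 0.05. The 4 filled points are Gata6 and Foxa2 in the middle and Gata4 and Sox17 in the high fraction, all to the right of 0, and no point is drawn for Foxa1, which held 4 reads or fewer in each group.

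The sorted fractions of day 4 were compared next, although Ctnnb1 reads did not separate them at that time. Ctnnb1 had a log2 fold change of 0.05 (FDR 0.993) in C1HDT vs C1MDT and of -0.47 (FDR 0.75) in C1HV vs C1MV in edgeR's test. These contrasts therefore compare the gate of day 0, without a called difference in Ctnnb1 reads. The study followed the fusion protein at day 4 by its mCherry signal, which these reads do not measure. In C1HV vs C1MV, where 0.00654% of all tested genes were called, and in C1HDT vs C1MDT, where 0% were, 0 members were called by edgeR or DESeq2 and 0 had an unadjusted p under 0.05. In C1H vs C1M, where Ctnnb1 was higher by 1.76 (FDR 1.55e-13), edgeR also called 0 members, with 0 at an unadjusted p under 0.05, in a comparison in which 1.77% of tested genes were called and DESeq2 gave no member an adjusted p. The 95% intervals for the difference between the fractions in Foxa2 ran from -0.18 to 0.59 in the withdrawn pair and from -0.31 to 0.35 in the pair kept on dox and TMP.

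Before differentiation, Gata6 alone among the 9 was called higher in C1M vs C1, a comparison in which 26.3% of all tested genes were called. Its log2 fold change was 1.45 (SE 0.46, FDR 0.0104) in edgeR's test, at 3.82, 4.61, 2.61 and 4.13 CPM in C1M, and without C1 replicate 4 it was 1.17 (FDR 0.0612). In C1H vs C1, with 25.9% of genes called, edgeR and DESeq2 called 0 members, and 3 had an unadjusted p under 0.05: Gata4 at 0.85 (FDR 0.0555), Gata6 at 1.01 (FDR 0.116) and Foxa1 as above. Without C1 replicate 1 edgeR called 2 members there, and 1 without C1 replicate 2 or C1H replicate 2, while C1M vs C1 had 2 without C1 replicate 1 or any 1 library of C1M. In the knockout cells Gata6 itself rose from C1 to C1T by 1.16 (FDR 0.0445), a call lost in 5 of 8 fits that left out a library (C1 replicate 2, 3 or 4, or C1T replicate 1 or 2), in DESeq2 (adjusted p 0.0624), with no filter (FDR 0.0693) and with only its groups fitted (FDR 0.0881).

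Genes related to the 9 by family or by stage were read from lists. Most are given as counts against C1T in the order C1MV, C1MDT, C1HV and C1HDT, beside the 30.2%, 33.4%, 28% and 33.5% of all tested genes called in the same comparisons. Of 23 tested markers of primitive, visceral and parietal endoderm, 16, 14, 16 and 15 rose and 1, 6, 0 and 6 fell, with medians of 2.65, 3.07, 2.73 and 3.02. Ttr, Apoa1 and Afp belong both to this list and to the hepatic list, so the counts of these lists share genes. Among the genes of this list that changed most in C1HDT vs C1T were the endocytic receptor gene Cubn, at 0.239 CPM in C1T and 16.3 CPM in C1HDT, the endocytic adaptor gene Dab2 (5.25, SE 0.21), the laminin gene Lama1 (5.70, SE 0.21) and Cited1 (5.55, SE 0.31), all at an edgeR FDR of 3.45e-17 or below. The 6 that fell in that comparison changed less and are not named. Dab2 had a mean of 11.2 CPM in C1T, 233 CPM in C1MV, 448 CPM in C1MDT, 253 CPM in C1HV and 442 CPM in C1HDT. Of 12 tested markers of definitive endoderm and gut tube, 5, 6, 5 and 7 rose and 2 fell each time, with medians of 0.82, 0.72, 1.17 and 1.46. Spink1 rose by 5.63 (SE 0.19), Krt8 by 2.45 and Cldn6 by 2.20 in C1HDT vs C1T, Pyy was called on a mean of 0.773 CPM with no reads in C1T, and Krt8 and Cldn6 are epithelial genes that other epithelia use.

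In the HNF and ONECUT network, which is given in part and without counts, Onecut2 fell by 1.05 and Nr5a2 by 0.64 on the log2 scale in C1HDT vs C1T. Of 18 other forkhead genes tested, 3, 2, 3 and 2 rose and 6, 6, 4 and 7 fell: Foxq1 rose by 2.92 in C1HDT vs C1T (2.14 CPM in C1T against 17.1 CPM), and Foxp1, Foxj1 and Foxd3 fell by 2.16, 1.92 and 1.12. Among 3 tested GATA and SOXF relatives, Gata1, named after its values were seen, was called in C1MDT alone, at a mean of 0.48 CPM over all libraries, and Gata3 had 10.4 to 14.1 CPM on average at day 0 against 0.662 to 2.56 CPM at day 4. Of 4 GATA cofactors tested, 1 rose each time and 1, 2, 1 and 1 fell: Zfpm1 rose by 1.24 and Lmo4 fell by 0.28 in C1HDT vs C1T.

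Markers of other fates the cultures could hold are read against the same shares. The calls amounted to 64.3% to 85.7% of the pluripotency, 40% to 60% of the neural, 25% to 50% of the trophoblast and 18.2% to 54.5% of the mesendoderm genes. They amounted to 16.7% to 50% of the floor plate, 20% to 40% of the fibroblast, 10% to 20% of the endothelial and blood and 8.33% to 16.7% of the cardiac genes. Of 11 mesendoderm and organizer factors tested, 1, 1, 1 and 2 rose and 1, 4, 2 and 4 fell, with Lhx1 at 1.77 higher, Gsc called on 0.119 CPM in C1T and 1.34 CPM in C1HDT, and Lefty2 at -1.08 and Tdgf1 at -1.0 lower in C1HDT vs C1T. Of 14 pluripotency genes, 10, 2, 10 and 3 rose and 2, 7, 2 and 6 fell. In C1HDT vs C1T, Nr0b1 was at -2.62, Prdm14 at -1.22 and Zfp42 at -1.22, whereas Dppa3 was at 2.42, on a mean of 0.911 CPM over all libraries. Of 10 neural genes, 1, 3, 2 and 4 rose and 5, 1, 3 and 1 fell, with Hes5 higher on 0.119 CPM in C1T and 1.81 CPM in C1HDT, and Nes at 0.83, Sox1 at 0.62 and Pax6 at -0.62 in C1HDT. Of 10 endothelial and blood genes, 1 rose in each comparison (Egfl7, at 1.07 in C1HDT) and 1, 1, 0 and 1 fell. Of 12 cardiac genes, 1 rose each time (Myl4, at 1.68 in C1HDT), and 1 fell in C1MDT only. Of 6 floor plate genes tested, 1, 0, 1 and 0 rose and 1, 2, 2 and 1 fell, with Ntn1 at -1.76. Of 8 trophoblast genes, 4, 2, 3 and 2 rose and 1 fell in C1MDT, with Tead4 at 1.62, and of 5 fibroblast genes, 1, 1, 2 and 1 rose, with Thy1 at 0.95. The part of these populations in the levels of the 9 genes was not tested.

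The genes whose levels most resembled those of each member over the 32 libraries were found by Pearson correlation of log2 CPM among genes with a mean of 5 CPM or more. For Foxa2 they were Dab2 (0.985), Srgn (0.974), Pth1r, Amn (0.966) and Cubn, for Gata6 Dab2 (0.978), Amn, Serpinh1, Tfpi and Srgn, for Gata4 Shisa5 (0.947), Npl, Cited1, Eml1 and Stard8, for Sox17 Nxf7 (0.958), Txndc12, Lgmn, Tmprss2 and Lama1, and for Sox7 S100g (0.946), Efnb1, Col4a2, Amn and Col4a1. The genes outside the marker set had no match so close: Dlk1 for Foxa3 (0.776), Ppp1r9a for Hnf4a (0.741), Ccdc155 for Hhex (0.819) and Hdgfl3 for Foxa1 (0.665). The points share libraries, groups and days, so these values describe the libraries. Within the 16 induced day 4 libraries Sox7 ran against Gata6 (-0.658) and Sox17 (-0.472), on 1.95 to 6.71 CPM of Sox7 a library.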

How the data were processed

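QuantSeq 3′ FWD libraries of 32 samples were processed by the authors with bbduk, STAR (mm10 genome) and htseq-count, and deposited as whole-number counts of reads per gene for each library, not normalized. The strand used in counting is not given in the sources used here. The entries for unassigned reads were left out of library sizes: reads without a feature made up 10.1% to 23.1% and ambiguous reads 0.480% to 0.622%. The share without a feature differed between groups. It was 19.5% to 23.1% at day 0, 12.5% to 15.6% in C1T, C1MV and C1HV, and 10.1% to 11.5% in C1MDT and C1HDT. The part of this difference in the contrasts was not tested. Groups came from the sample labels. The labels and the study's methods differ on the day 0 medium (serum with LIF or 2i with LIF).

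The test took genes that reached 1 CPM in 4 or more libraries. All 32 libraries entered 1 quasi-likelihood fit in edgeR 4.0.16 (R 4.3.3) with TMM scaling, group as the term and no replicate block. FDR is the Benjamini-Hochberg adjusted p over all tested genes of a contrast, with a threshold of 0.05. Alternatives were DESeq2 1.42.0, RLE and library-size scaling, a filter of 1 CPM in 8 libraries or none, fits of only the groups compared, the replicate block, and leaving out each library. The scripts were tested on simulated data. Ratios against groups of 1 to 3 reads have exact Poisson intervals at 95%, which cover counting error only. No pair of libraries had identical counts.

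The members and the lists were chosen with earlier results of these data known. All 9 members are named. Of each list, up to 4 genes are named, those called in C1HDT vs C1T with the largest change, or, with none called, the highest in CPM. For each member, the 5 most correlated genes were found on log2 CPM with a prior count of 2. The lists covered the HNF and ONECUT network, other forkhead genes, GATA and SOXF relatives, GATA cofactors, mesendoderm, definitive endoderm and gut, primitive endoderm and its derivatives, hepatic targets, pluripotency, endothelium and blood, cardiac mesoderm, floor plate, neural ectoderm, trophoblast and fibroblasts. The HNF and ONECUT network is given in part, since 1 result in it is not reported here.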

Additional observations from a re-analysis of the deposited data

Results flagged for a closer look

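The 16 differences between an induced arm and the knockout in the change over 4 days were called in edgeR and are listed in the order C1MV, C1MDT, C1HV and C1HDT, as extra log2 change. Gata4 had 2.48 (FDR 8.11e-05), 2.72 (FDR 1.18e-05), 2.12 (FDR 8.51e-04) and 2.69 (FDR 1.02e-05). Gata6 had 1.91, 2.41, 2.36 and 2.64, and all 4 were lost without C1 replicate 1. Sox17 had 4.87 (FDR 3.64e-07), 5.15 (FDR 5.42e-08), 4.68 (FDR 1.71e-06) and 5.52 (FDR 4.98e-09), which rest on the 2 reads in C1T. Foxa2 had 2.65, 3.3, 3.28 and 3.75. The 4 arms share the libraries of C1 and C1T.

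In 7 of 71 sets of 4 libraries, 1 library lay outside Dixon's limit for its group, where chance gives about 1 in 20. In 4 of the 7 it was the only library with reads in a group otherwise at 0: Sox17 in C1T replicate 1 (0.959 CPM, 2 reads), Sox7 in C1H replicate 2 (0.348 CPM, 1 read) and C1T replicate 4 (0.652 CPM, 1 read), and Foxa1 in C1 replicate 1 (0.419 CPM, 1 read). Foxa1 was at 0 CPM in C1MV replicate 4, against 0.363 to 0.403 CPM in the others. Foxa2 was at 1.70 CPM in C1H replicate 1, against 2.44 to 2.56 CPM. Hnf4a was at 5.50 CPM in C1MDT replicate 4, against 2.58 to 3.07 CPM.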

How the results depend on the processing

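Against C1T at day 4, 5 members were called in each comparison under every alternative, 1 of them Sox7, which the filter favoured. With library size as the only scaling, 2 members were called in C1M vs C1 (1 with TMM), 2 in C1H vs C1 (0), 1 in C1HDT vs C1HV (2) and 4 over the day 0 comparisons (1). C1HDT vs C1HV also had 1 under RLE scaling and under DESeq2. Leaving out 1 library gave 0 to 2 in C1M vs C1, 0 to 2 in C1H vs C1, 1 to 2 in C1MDT vs C1MV, 1 to 2 in C1HDT vs C1HV and 0 to 4 over day 0. The cause was not tested. No called log2 fold change reversed, and 1824 of 1872 values with a library left out and 1266 of 1278 under other settings kept their side of the threshold. Foxa1 had no value under the filter on 8 libraries.

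Replicate numbers did not pair the libraries: deviations correlated at -0.00163 within a number and 0.000545 between numbers, and 7 of 32 libraries were most like their own number. The fit with the replicate block gave the same member counts, 1 in C1M vs C1 and 5 in each comparison with C1T. Over all genes, C1H vs C1M had 271 calls and 570 when only its groups were fitted, C1HV vs C1MV had 1, and 2 in DESeq2, 3 with no filter and 0 with only its groups, and the term for duration by fraction had 0, 38 in DESeq2 and 11 with no filter. With library size only, the share of calls that were higher moved from 54.4% to 64.5% in C1M vs C1, 53.4% to 66.4% in C1H vs C1, 49.1% to 59.4% in C1HV vs C1T and 56.8% to 45.2% in C1HDT vs C1HV. Foxa1 and Sox7, at a few reads a library, are limited by depth.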
